A study of Mus musculus with 6 samples.

Results

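The genes of plasminogen activation and of the tissue factor pathway were examined in whole small intestine of mouse embryos labelled as E-cadherin conditional knockouts (cKO) and of control embryos. The 8 genes were listed by symbol, with earlier results of these data known: the plasminogen activators Plau and Plat, the receptor Plaur, the inhibitor Serpine2, the clotting initiator F3 and its restraints Thbd, Tfpi and Tfpi2. Of these, 7 had a probe set annotated to that gene alone, 1 probe set each, out of 19938 genes measured in all. Serpine2 was not analysed here. All tissue was taken at E18.5, shortly before birth, when the villi have formed. The cKO group comprised 3 samples labelled as E-cadherin cKO, and the control group 3 samples labelled wild type, each on 1 Affymetrix Mouse Gene 1.0 array. The labels name no driver of the recombination, no strain and no sex of the embryos. They do not say whether the samples are separate embryos, so the spread behind each p-value may be technical.

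Plasminogen is a circulating proenzyme that the activators uPA (product of Plau) and tPA (product of Plat) cleave to plasmin, a protease that dissolves fibrin and degrades extracellular matrix. The receptor uPAR (product of Plaur) holds uPA at the cell surface, where the cleavage takes place near migrating and wound-edge cells. Tissue factor (product of F3) is the membrane protein that binds factor VII and starts clotting when blood leaves a vessel. In the gut, these genes are known from mucosal injury and inflammation.

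Values are the deposited log2 values, each group's mean is given ± SD, and a difference is cKO minus control with the standard error (SE) of limma's moderated test. A gene was called changed at a Benjamini-Hochberg adjusted p under 0.05 over all 19938 genes. The arrays correlated over genes at 0.972 to 0.978 among cKO samples, 0.981 to 0.987 among controls and 0.929 to 0.966 between the groups. Cdh1, which encodes E-cadherin, read 9.70, 8.38 and 8.91 in cKO 1, 2 and 3, against 9.86, 9.82 and 10.15 in control 1, 2 and 3. All cKO values of Cdh1 lay below the controls, with a difference of -0.95 (SE 0.31) that did not pass over all genes (limma adjusted p = 0.088, exact two-sided permutation p = 0.1, the smallest possible for 3 against 3). No source used here places its probes inside or outside the deleted exons, and probes outside them check nothing. Intestinal epithelial markers were present in both groups, with a summed level of 14.13 to 14.26 in cKO samples and 13.83 to 14.06 in controls (log2 of the sum of linear values). Of 6 such markers, the keratin genes Krt8 and Krt18 rose by 0.91 and 1.19 (limma adjusted p = 0.0031 and 0.0053) and 4 did not pass. Over all genes 6.81% were called higher. The other 4 markers went the other way: Epcam differed by -0.10, Cdh17 by -0.15, Cldn7 by -0.23 and Vil1 by -0.31. For Vil1 all cKO samples lay below the controls. The list median was -0.12, so the higher cKO sum does not describe the list as a whole. Epcam, an epithelial adhesion molecule, averaged 11.84 ± 0.03 in cKO samples and 11.94 ± 0.11 in controls (SD, n = 3 each).

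Both plasminogen activators, the uPA receptor and tissue factor rose in the cKO intestine, by 3.05-fold to 7.84-fold as measured, and thrombomodulin rose by 1.38-fold. In these 5 genes all cKO values lay above all control values. The 2 Kunitz-type inhibitors, Tfpi and Tfpi2, had overlapping groups. Of all genes tested 14.2% were called, 6.81% higher in cKO and 7.36% lower, and 16.0% had all cKO values above all control values. The median difference of the 7 genes was 1.61, beside -0.09 over all genes tested. Since the genes were listed with earlier results known, these counts and this median are a description of them.

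**Figure D1:**
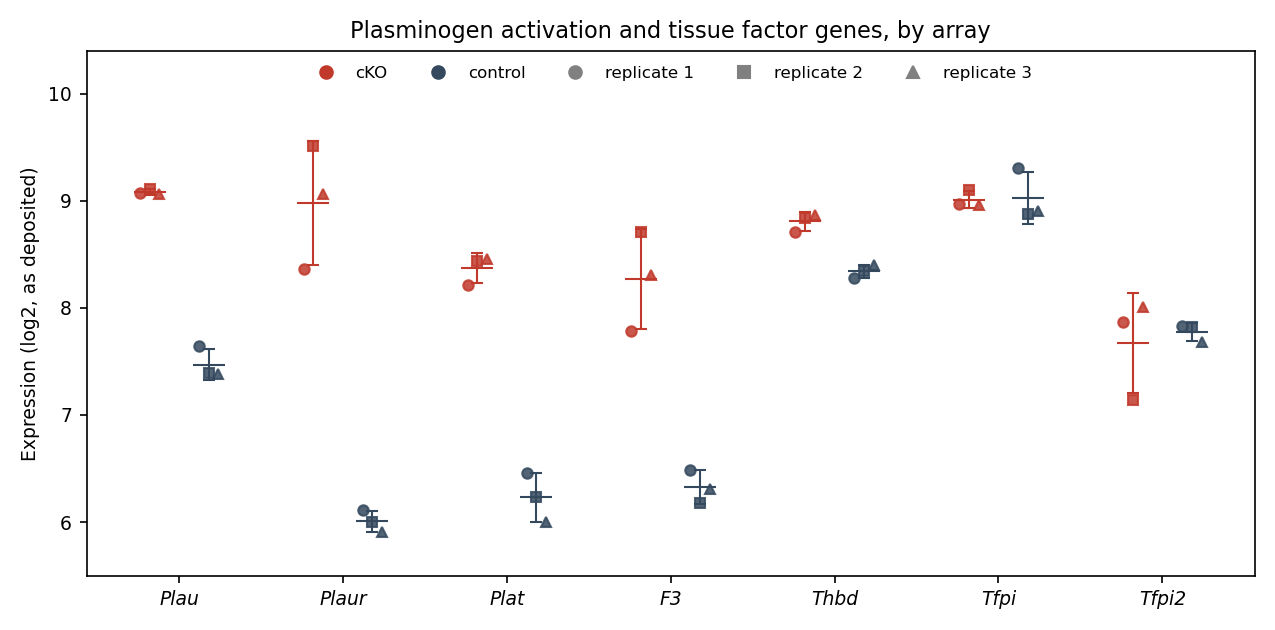
Expression (log2 values as deposited) of the 7 measured genes in each of 3 cKO and 3 control arrays, with the marker shape giving the replicate and the bars the group mean ± SD. Plau, Plaur, Plat, F3 and Thbd are higher on every cKO array than on any control array, while the groups of Tfpi and Tfpi2 overlap.

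Plau (probe set 10413047) encodes urokinase, the activator that works mostly at cell surfaces. It read 9.07, 9.11 and 9.06 in cKO 1, 2 and 3, against 7.64, 7.39 and 7.38 in control 1, 2 and 3. The 3 cKO samples were nearly equal, and the lowest of them lay 1.42 above the highest control. The mean was 9.08 ± 0.03 in cKO samples and 7.47 ± 0.15 in controls (SD, n = 3 each), a rise of 1.61 (SE 0.12, limma adjusted p = 0.00065) or 3.05-fold (95% interval 2.52 to 3.70).

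Plat (probe set 10570855) encodes tissue-type plasminogen activator, which acts mainly on fibrin and is made by endothelium and by nerve cells among others. It read 8.21, 8.44 and 8.46 in cKO 1, 2 and 3, against 6.46, 6.23 and 6.0 in control 1, 2 and 3. Every cKO sample lay at least 1.75 above every control. The mean was 8.37 ± 0.14 in cKO samples and 6.23 ± 0.23 in controls (SD, n = 3 each), a rise of 2.14 (SE 0.15, limma adjusted p = 0.00061) or 4.41-fold (95% interval 3.45 to 5.63). Of its 3 controls 2 lay at the background of the arrays, so 1 control measured it. Background was taken as the level under which 95% of 1227 olfactory, vomeronasal and taste receptor genes fell (5.79 to 6.25 over the cKO arrays and 6.19 to 6.36 over the control arrays).

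The rises of the activators were set against each other within each array. The log2 value of Plau minus that of Plat averaged 0.71 ± 0.13 in cKO samples and 1.24 ± 0.12 in controls (SD, n = 3 each), a difference of -0.53 between the groups. Since 2 of the 3 Plat controls lay at background, this size is not exact. The groups did not overlap, and the exact two-sided permutation p was 0.1, or 0.15 adjusted over the 3 pairs of genes compared. A design of 3 against 3 cannot go below 0.1, so no such pair could pass.

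Plaur (probe set 10550906) encodes uPAR, a glycolipid-anchored receptor of epithelial, endothelial and myeloid cells. It read 8.36, 9.51 and 9.06 in cKO 1, 2 and 3, against 6.11, 6.0 and 5.91 in control 1, 2 and 3. The cKO samples differed among themselves, with cKO 1 lowest and cKO 2 highest, and all lay at least 2.25 above the controls. The mean was 8.98 ± 0.58 in cKO samples and 6.01 ± 0.10 in controls (SD, n = 3 each), a measured rise of 2.97 (SE 0.27, limma adjusted p = 0.0011). All 3 controls lay at the background of the arrays, so the rise is at least 6.53-fold, taken as the cKO mean against the higher of the background and the measured value on each control array.

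The promoter of Plaur is shown because it holds a match to the AP-1 motif, the site of Fos and Jun dimers, as does that of F3. Windows of the 250 bases before the annotated gene start were taken from RefSeq (GRCm38.p6), where 5 of the 8 genes matched by symbol (Plaur, Serpine2, F3, Tfpi and Tfpi2, with 8 windows in all). In the sequence below, written 5′ to 3′ on the plus strand (chr7:24462233-24462482), capitals mark the AP-1 match.
Plaur promoter: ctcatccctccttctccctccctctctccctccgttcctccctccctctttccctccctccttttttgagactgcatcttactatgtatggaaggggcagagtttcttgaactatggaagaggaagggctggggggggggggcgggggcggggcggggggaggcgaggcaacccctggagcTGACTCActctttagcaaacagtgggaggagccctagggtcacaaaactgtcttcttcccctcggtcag
The AP-1 match of Plaur lies 69 to 63 bases before the start. The same window holds 1 match to the EGR motif GCGNGGGCG and 3 to the GC box GGGCGG, and the EGR match overlaps a GC box. The window of Serpine2 and 1 window of Tfpi2, which was not called changed, also hold 1 EGR match overlapping a GC box.

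F3 (probe set 10495675), the tissue factor gene, read 7.78, 8.71 and 8.31 in cKO 1, 2 and 3, against 6.49, 6.18 and 6.31 in control 1, 2 and 3. As for Plaur, cKO 1 was lowest and cKO 2 highest, and every cKO sample lay at least 1.29 above the controls. The mean was 8.27 ± 0.47 in cKO samples and 6.33 ± 0.16 in controls (SD, n = 3 each), a rise of 1.94 (SE 0.23, limma adjusted p = 0.0026) or 3.84-fold (95% interval 2.64 to 5.59). Of its control values 2 of 3 lay at background.

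The F3 promoter holds 2 matches to AP-1, and 1 of the 3 windows of Tfpi2 holds a match as well, although Tfpi2 was not called changed. Both are shown 5′ to 3′ with the AP-1 matches in capitals, for F3 on the plus strand (chr3:121723287-121723536) and for Tfpi2 on the minus strand (chr6:3968376-3968625).
F3 promoter: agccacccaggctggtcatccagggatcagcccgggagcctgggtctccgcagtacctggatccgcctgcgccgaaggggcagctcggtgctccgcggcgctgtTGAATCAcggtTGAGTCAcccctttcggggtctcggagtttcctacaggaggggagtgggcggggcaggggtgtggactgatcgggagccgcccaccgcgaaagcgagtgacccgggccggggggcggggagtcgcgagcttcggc
Tfpi2 promoter: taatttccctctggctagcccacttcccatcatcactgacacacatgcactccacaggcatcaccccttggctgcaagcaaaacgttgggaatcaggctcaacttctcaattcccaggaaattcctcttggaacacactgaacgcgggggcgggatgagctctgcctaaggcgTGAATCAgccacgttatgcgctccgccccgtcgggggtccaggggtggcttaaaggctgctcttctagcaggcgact
The AP-1 matches of F3 lie 146 to 140 and 135 to 129 bases before the start, and that of Tfpi2 lies 77 to 71 bases before it. AP-1 was searched as TGANTCA on both strands, and 6.75% of the 32851 windows of this length in the table hold it. The EGR motif was found in 4.7% of windows, the GC box in 32.7% and the TEAD motif GGAATG, the site of the YAP and TAZ partners, in 12.6%. None of the 8 windows of these genes holds the TEAD letters, and the windows of Tfpi and Serpine2 hold no AP-1 match. A match is a stretch of letters and not evidence of binding.

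Thbd (probe set 10488378) encodes thrombomodulin, the endothelial receptor that turns thrombin towards activating the anticoagulant protein C. It read 8.71, 8.84 and 8.87 in cKO 1, 2 and 3, against 8.28, 8.34 and 8.40 in control 1, 2 and 3. The groups lay 0.31 apart at their nearest samples. The mean was 8.81 ± 0.09 in cKO samples and 8.34 ± 0.06 in controls (SD, n = 3 each), a rise of 0.47 (SE 0.11, limma adjusted p = 0.029) or 1.38-fold (95% interval 1.16 to 1.65). This call was lost with the replicate number as a block (adjusted p = 0.075) and without cKO 3, control 1, control 2 or control 3 (adjusted p = 0.107, 0.097, 0.120 and 0.074).

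Tfpi (probe set 10484389) encodes tissue factor pathway inhibitor, which blocks the complex of tissue factor and factor VII together with factor X. It read 8.97, 9.10 and 8.96 in cKO 1, 2 and 3, against 9.31, 8.88 and 8.90 in control 1, 2 and 3. The cKO samples lay within the range of the controls. The difference was -0.02 (95% interval -0.36 to 0.32, limma adjusted p = 0.94), an interval of 0.78-fold to 1.25-fold of the control level. Within arrays, F3 minus Tfpi averaged -0.74 ± 0.41 in cKO samples and -2.70 ± 0.12 in controls (SD, n = 3 each), a difference of 1.96 between the groups, which did not overlap (exact permutation p = 0.1, adjusted 0.15). Its size is not exact either, with 2 of 3 F3 controls at background.

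Tfpi2 (probe set 10542953) encodes a related Kunitz inhibitor of the matrix that acts on plasmin and on the complex of tissue factor and factor VII. It read 7.87, 7.14 and 8.01 in cKO 1, 2 and 3, against 7.83, 7.82 and 7.68 in control 1, 2 and 3. The cKO 2 sample was the lowest of all, while the others lay above every control. The difference was -0.10 (95% interval -0.63 to 0.42, limma adjusted p = 0.79), and without cKO 2 it was 0.16 (adjusted p = 0.42). On cKO 2 the receptor genes used for background lay 0.37 below the control mean in the median, against shifts from -0.06 to 0.09 on the other arrays. After quantile normalization, median centring and cyclic loess Tfpi2 differed by -0.09, -0.09 and -0.12. Whether the low reading on cKO 2 belongs to the array was not tested. The change of Tfpi2 minus that of Tfpi was -0.08 (exact permutation p = 0.9).

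**Figure D2:**
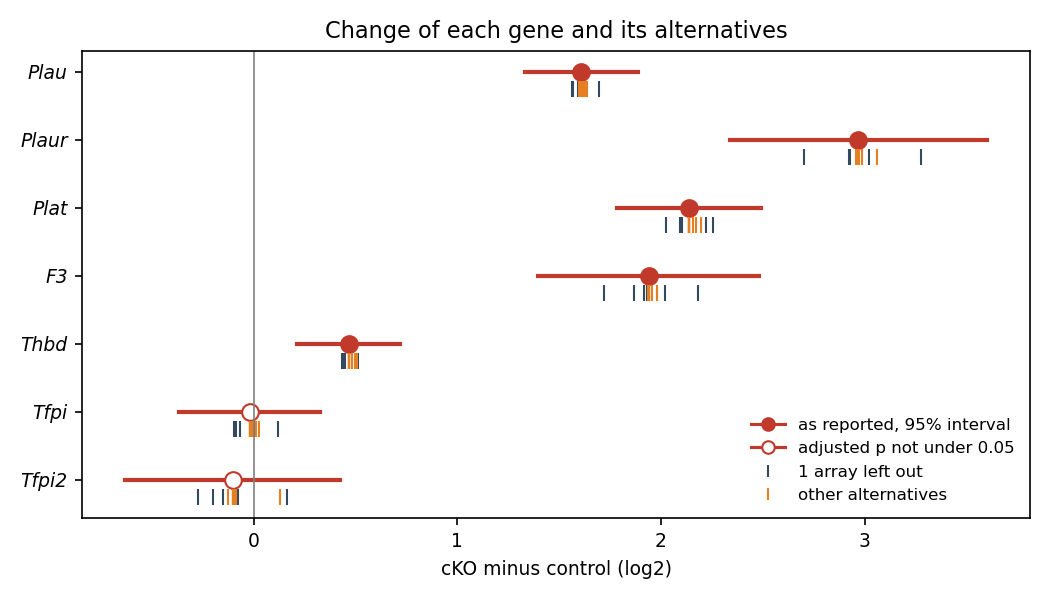
Difference cKO minus control (log2) of each gene with its 95% interval, filled where the adjusted p was under 0.05, and below it the values under 16 alternatives (ticks). Plau, Plaur, Plat and F3 stay well above 0 in every alternative, whereas Tfpi and Tfpi2 fall on both sides of it.

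The cKO samples were not alike in all genes. Plaur lay 2.35, 3.50 and 3.05 above the control mean in cKO 1, 2 and 3, and F3 lay 1.45, 2.38 and 1.98 above it. The order of the samples was the opposite of that of Cdh1, which lay at -0.24, -1.56 and -1.03 relative to the control mean. Plau did not share this spread, at 1.60, 1.64 and 1.59. With 3 samples no test of such an order was made.

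Several cell type marker lists moved with the groups, and in bulk tissue fewer cells of a type and less RNA per cell cannot be told apart. Beside the counts that follow, 6.81% of all genes were called higher and 7.36% lower. Macrophage genes were higher: 8 of 10 rose, with a summed level of 11.93 to 12.32 in cKO samples and 11.18 to 11.28 in controls. Adgre1, a surface receptor of macrophages, rose by 1.22 as measured, with 2 of 3 controls at background, and Fcgr3, an antibody receptor, by 1.61. All 7 smooth muscle and all 7 fibroblast markers rose, with median differences of 0.86 and 0.77, as did 4 of 6 mesothelial markers. Of 8 neutrophil markers 2 rose, and the summed level was 8.89, 10.07 and 8.83 in cKO 1, 2 and 3, against 8.57 to 8.67 in controls. Ly6g, a neutrophil surface gene, read 6.52, 9.27 and 6.54 in cKO 1, 2 and 3, against 4.18, 4.0 and 4.32 in control 1, 2 and 3. All 3 controls lay at background. The sample with the highest Plaur and F3 also had the highest Ly6g. On cKO 2 the next brightest neutrophil marker, S100a9, read 6.59, so the summed level there rests mostly on Ly6g. The neutrophil list was mixed, with a median difference of -0.0033, but 3 of its 8 genes (Camp, Ngp and Mpo) lay at background in all samples. S100a8 and S100a9 differed by 1.37 and 0.60, with all cKO samples above the controls. In both, 2 of 3 cKO samples and all controls lay at background. Camp and Elane, granule protein genes of neutrophils, differed by -0.14 and -0.40, with all cKO samples below the controls. Ngp, Ltf and Mpo differed by -0.15, -0.03 and 0.02. Without cKO 2 Plaur rose by 2.70 and F3 by 1.72 (limma adjusted p = 0.0017 and 0.0036). On the remaining cKO 1 and 3 Ly6g also lay above every control, so this fit does not set the neutrophil genes apart.

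Markers of endothelium, a main source of thrombomodulin and of Tfpi, moved less. Of 11 measured 1 rose (Eng, an endothelial coreceptor, by 0.41), beside 6.81% called higher over all genes. Their summed level was 11.95 to 11.98 in cKO samples and 11.70 to 11.75 in controls. The endothelial sum differed by 0.23 between the group means, against 0.47 for Thbd. No platelet, mast cell, enteric nervous system or hepatocyte marker was called, and no marker of any list read 0. Of those measured, 4 of 5 mast cell and 3 of 4 hepatocyte markers lay at background on all arrays. The same held for 1 of 4 platelet and 1 of 4 enteric nervous system markers. Enterocyte markers were lower, 5 of 6, beside 7.36% called lower over all genes. Their summed level was 13.39 to 13.59 in cKO samples and 14.39 to 14.87 in controls. The part of these cell type differences in the changes of Plau, Plaur, Plat, F3 and Thbd was not tested.

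**Figure D3:**
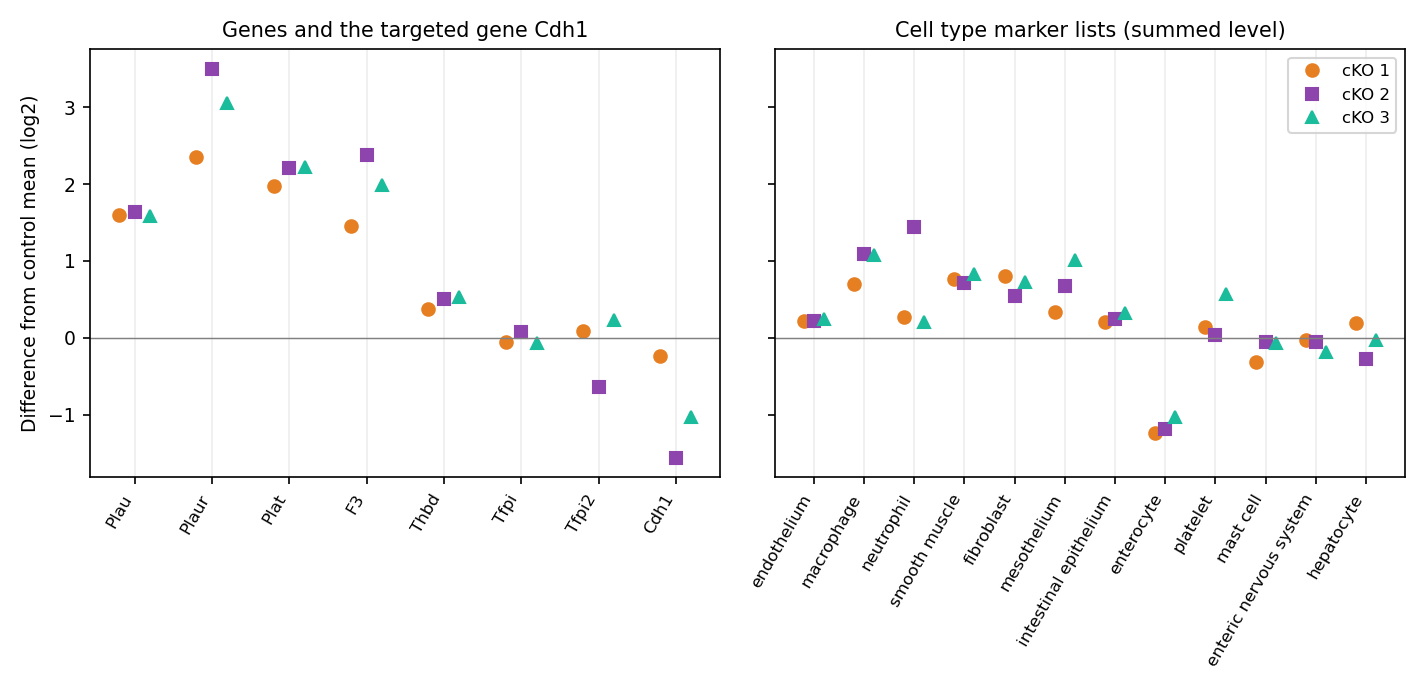
Difference from the control mean (log2) on each of the 3 cKO arrays for the 7 genes and Cdh1 (left) and for the summed level of 12 cell type marker lists (right). Plaur and F3 are highest on cKO 2, where Cdh1 is lowest and the neutrophil sum is highest, while Plau is level across the arrays. On cKO 2 the neutrophil sum rests mostly on Ly6g.

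Among 18 other measured genes of the plasminogen system, 2 rose, 3 fell and 13 did not pass, beside 6.81% higher and 7.36% lower over all genes. Their median difference was -0.14, beside -0.09 over all genes. Among the 13, Plg, Pzp, Serpinb2 and Serpina5 lay at background on all 6 arrays. The median falls between Plg and Pzp, so it does not measure a shift of the list. Anxa2, a surface receptor for plasminogen and tPA, read 11.52, 11.96 and 11.86 in cKO 1, 2 and 3, against 10.78, 10.85 and 10.67 in control 1, 2 and 3, a rise of 1.01 (SE 0.14, limma adjusted p = 0.0048). Its partner S100a10 differed by 0.24 (adjusted p = 0.24), with cKO samples above controls. Mrc2, a collagen receptor that associates with uPAR, rose by 0.62 (SE 0.14), a call lost without cKO 1, cKO 3, control 1 or control 2 (adjusted p = 0.060, 0.067, 0.063 and 0.101).

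Hpn, the membrane protease hepsin, which can activate pro-urokinase, read 6.33, 6.25 and 6.57 in cKO 1, 2 and 3, against 8.57, 8.56 and 8.48 in control 1, 2 and 3. It fell by 2.15 (SE 0.12, limma adjusted p = 0.00050), opposite in direction to the activators. Plgrkt, another plasminogen receptor, fell by 1.14 (SE 0.17, adjusted p = 0.0057). Serpinf2, the plasmin inhibitor alpha2-antiplasmin, fell by 0.67 (SE 0.18, adjusted p = 0.044). The Serpinf2 call was lost with the replicate block (0.051) and without cKO 1, cKO 3, control 1, control 2 or control 3 (adjusted p = 0.052, 0.058, 0.102, 0.134 and 0.144). Plasminogen itself, Plg, lay at background on all 6 arrays, 5.08 to 5.76 in cKO samples and 5.54 to 5.82 in controls, as did Serpinb2, an inhibitor of both activators, at 4.61 to 5.12 in cKO samples and 5.16 to 5.38 in controls. Lrp1, which clears activator and inhibitor complexes, differed by 0.46 (adjusted p = 0.27) and Vtn, the uPAR ligand vitronectin, by -0.40 (adjusted p = 0.31).

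**Figure D4:**
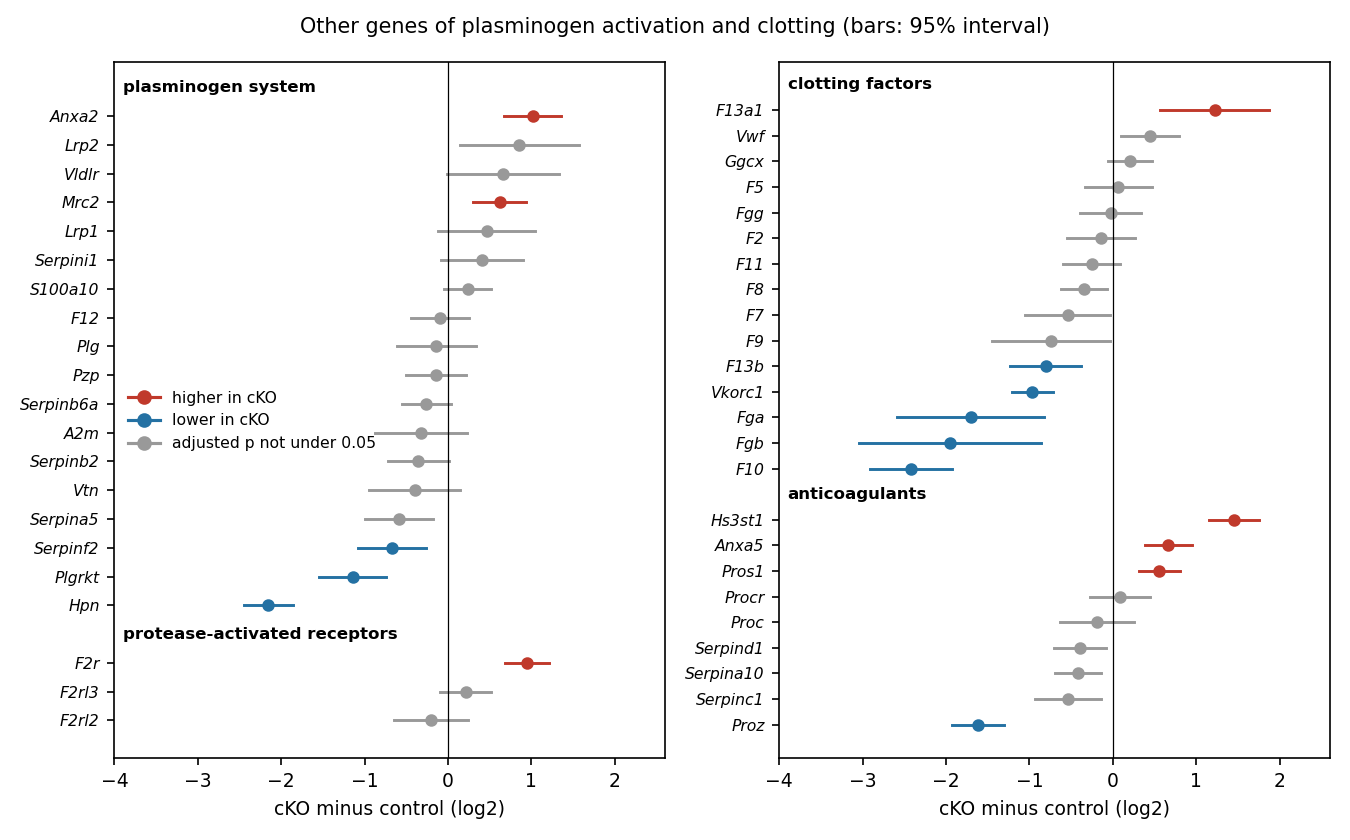
Difference cKO minus control (log2, point) with 95% interval (bar) of the 45 other measured genes of plasminogen activation and clotting, in 4 lists, coloured by call. Changes run in both directions: 7 genes are called higher and 9 lower, beside 6.81% higher and 7.36% lower over all genes. Without control 2 these counts are 3 and 5, beside 509 higher and 717 lower of all 19938 genes.

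Of 15 clotting factor genes, 5 fell, 1 rose and 9 did not pass, with a median of -0.35, beside 7.36% lower and 6.81% higher over all genes. Among the 9, F5, F7, F8, F9, F11 and Fgg lay at background on all 6 arrays. The median is the value of F8, so it does not measure a shift of the list. F10, the factor X gene whose product the tissue factor complex cleaves, read 7.35, 7.5 and 7.63 in cKO 1, 2 and 3, against 9.47, 9.97 and 10.30 in control 1, 2 and 3. It fell by 2.42 (SE 0.21, limma adjusted p = 0.0010), more than any other of the 45 genes. Vkorc1, the vitamin K reductase that clotting factors need, fell by 0.97 (SE 0.11, adjusted p = 0.0020).

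The fibrinogen chain genes Fga and Fgb fell by 1.71 (SE 0.38) and 1.95 (SE 0.47), with 2 of 3 cKO samples at background in both, so these sizes are not exact. Fga had 2 probe sets, of which the brighter is given, and their mean differed by -1.225 (limma adjusted p = 0.029). Fgb read 5.38, 5.93 and 5.10 in cKO 1, 2 and 3, against 8.51, 7.16 and 6.59 in control 1, 2 and 3, so the controls were widely spread, with control 1 highest. Both calls were lost without cKO 1 (adjusted p = 0.055 for Fga and 0.074 for Fgb), cKO 3 (0.078 and 0.10) or control 2 (0.070 and 0.083). The third chain, Fgg, lay at background on all arrays. F13b, the carrier chain of the fibrin-linking factor XIII, fell by 0.80 (SE 0.18), with all cKO samples at background (at least 1.51-fold lower). Its call was lost without cKO 3, control 1, control 2 or control 3 (adjusted p = 0.087, 0.079, 0.078 and 0.102). F13a1, the enzyme chain of factor XIII and a gene of tissue macrophages, was the one clotting gene that rose, by 1.22 (SE 0.28, adjusted p = 0.028). That call was lost without cKO 2, cKO 3, control 2 or control 3 (adjusted p = 0.059, 0.090, 0.103 and 0.113). F7, the partner of tissue factor, lay at background on all arrays, and F2, prothrombin, differed by -0.15 (adjusted p = 0.62).

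Of 9 anticoagulant genes, 3 rose, 1 fell and 5 did not pass, with a median of -0.19, beside 6.81% higher and 7.36% lower over all genes. Among the 5, Serpind1 and Serpina10 lay at background on all 6 arrays. Hs3st1, the sulfotransferase that makes antithrombin-binding heparan sulfate, read 7.14, 7.46 and 7.35 in cKO 1, 2 and 3, against 5.99, 5.78 and 5.83 in control 1, 2 and 3. It rose by 1.45 (SE 0.13, limma adjusted p = 0.0010), with all controls at background (at least 2.07-fold higher). Pros1, protein S, rose by 0.56 (SE 0.11), a call lost without control 2 or control 3 (adjusted p = 0.076 and 0.052). Anxa5, which covers the lipids on which clotting proceeds, rose by 0.67 (SE 0.12), lost without cKO 3 or control 2 (adjusted p = 0.053 and 0.067). Proz, protein Z, a cofactor in the inhibition of activated factor X, fell by 1.62 (SE 0.13, adjusted p = 0.00079). Procr, the endothelial protein C receptor, differed by 0.09 (adjusted p = 0.74) and Proc, protein C, by -0.19 (adjusted p = 0.56).

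Of 3 protease-activated receptors measured, F2r, the thrombin receptor PAR1, rose, beside 6.81% called higher over all genes. It read 9.37, 9.37 and 9.39 in cKO 1, 2 and 3, against 8.39, 8.57 and 8.32 in control 1, 2 and 3, a rise of 0.95 (SE 0.11, limma adjusted p = 0.0026). F2rl2 (at background on all 6 arrays) and F2rl3 (on 2 cKO and all 3 control arrays) did not pass, at -0.20 and 0.21. F2rl1, the receptor PAR2 of gut epithelium, was not analysed here.

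The genes with profiles most like each changed gene were found by the Euclidean distance between gene-centred log2 values over the 6 arrays, 3 genes each. Nearest to Plaur were Mmp10, a stromelysin (distance 0.41), Saa3, an acute-phase gene (0.54), and Cldn4, a claudin (0.65). Nearest to Plau were Ptgs2, the inducible cyclooxygenase (0.22), Phldb2 (0.24) and Itga5, the fibronectin receptor alpha chain (0.25). Plat lay nearest to Anxa3 (0.27) and to the metalloproteinase genes Mmp9 (0.36) and Mmp7 (0.39). F3 lay nearest to Mmp7 (0.31), the leukotriene synthesis gene Alox5ap (0.32) and Gcnt1 (0.38), and Thbd to Armc10, 1700016C15Rik and Tcf4 (0.05 to 0.06). Mmp10 read 8.05, 9.23 and 8.96 in cKO 1, 2 and 3, against 5.46, 5.67 and 5.68 in control 1, 2 and 3. All its controls lay at background, as did those of Plaur. These distances chose the genes, describe 6 arrays in 2 groups and carry no test.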

How the data were processed

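RNA of 3 cKO and 3 control samples of whole small intestine was hybridised to Affymetrix Mouse Gene 1.0 arrays, 1 per sample. The series design text names the software dChip. No source used here gives its version, background correction, normalization or expression model. The deposited table holds 1 value per array for 35512 probe sets, from 0 to 14.07, read here as log2 values made by the authors, from their range, since no label names the scale. Values were used as deposited. Gene names came from the platform annotation: 21789 probe sets had 1 gene symbol, 1621 several and 12102 none listed. Of the 21789, 21698 had their gene identifier in a GRCm38.p6 table and took its symbol, whether or not it differed (names only). The brightest probe set over the 6 arrays stood for each gene (999 genes had several). All 19938 genes were fitted with limma 3.58.1 in R 4.3.3 (lmFit and eBayes, no covariate, two-sided, Benjamini-Hochberg over all genes, threshold 0.05). The script was tested on simulated data. Arrays carry no read depth, and their number limits the precision.

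The members, pathway lists and marker lists were chosen with earlier results of these data known. Named are all members, Cdh1, up to 6 called genes of each pathway list with the smallest p, a fixed set of neighbours in the pathway and the 3 nearest profiles of each called member. The markers Adgre1, Fcgr3, Eng, Epcam, Cdh17, Cldn7, Vil1, Krt8 and Krt18 were named after their values were seen. The same holds for all neutrophil markers named (Ly6g, S100a8, S100a9, Camp, Elane, Ngp, Ltf and Mpo). So were the list members Fgg, F5, F8, F9, F11, Pzp, Serpina5, Serpind1, Serpina10, F2rl2 and F2rl3. The pair of Plau and Serpine2 could not be compared. Alternatives were array scaling, dim-gene filters, the row per gene, array weights, another variance prior, the replicate block and leaving out each array.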

Additional observations from a re-analysis of the deposited data

How the results depend on the processing

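Plau, Plaur, Plat and F3 were called higher under all 16 alternatives, with limma adjusted p of at most 0.0072, 0.010, 0.0064 and 0.018. Thbd was called under 11 of 16. The count of members called higher was 4 to 5 with 1 array left out and in the other alternatives, and none was called lower in any. Deviations from the group mean correlated at -0.08, 0.13 and 0.14 for arrays of equal replicate number, and from -0.24 to 0.15 for unequal numbers. With 3 arrays per group these values cannot decide whether equal numbers belong together. With the replicate block 4 members were called, and 2212 genes in all, against 2825. Tfpi turned sign with quantile normalization (0.025) and cyclic loess (0.013), without cKO 3 (0.005) and without control 1 (0.12), in a range of -0.095 to 0.12 with 1 array left out. Tfpi2 turned with array weights (0.13) and without cKO 2 (0.16), in a range of -0.27 to 0.16. None of these values passed. The difference between Tfpi2 and Tfpi ran from -0.28 to 0.23 with 1 array left out, turning without cKO 2 (0.23) or control 2 (0.01). Cdh1 passed with median centring (-0.93, adjusted p = 0.045), without the dimmer 50% of genes (-0.95, 0.044), with array weights (-0.89, 0.011) and without cKO 1 (-1.30, 0.012), and ran from -1.30 to -0.64 with 1 array left out. Array weights called 5834 genes over the table. With 1 array left out the table's count ran from 1226 (without control 2) to 2713, the other pathway genes called higher from 3 to 6 and lower from 5 to 9, with the lowest of both without control 2. The cause of these shifts was not tested.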
